A study of Rattus norvegicus with 18 samples.

Results

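The blood transcriptome of male Wistar rats, as seen in PBMC (peripheral blood mononuclear cells, the white cells other than granulocytes, isolated on a Ficoll gradient), was compared between the arrays of 1 microarray slide and the arrays of the other slides, with diet balanced. Slide 1 is the slide with the lowest barcode and held 4 arrays, LFD replicates 1 and 2 and HFD replicates 1 and 2. They were set against the 8 LFD and HFD arrays on slides 2 to 5 (LFD replicates 3 to 6 and HFD replicates 3 to 6), so 12 of the series' 18 arrays entered. The 6 HPD arrays were left out because none lay on slide 1. Membership was read from the slide barcode alone, not from any measured value.

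LFD stands for a low-fat diet, in which fat gave 10%, protein 20% and carbohydrate 70% of the energy, and HFD for a high-fat diet, in which these shares were 60%, 20% and 20%. HPD, a high-protein diet used only in 1 alternative and a closing observation, had shares of 10%, 45% and 45%. The rats ate their diet for 4 months from an age of 2 months, and blood was taken after a fast of 14 h. The HFD and HPD were given in amounts isocaloric to the intake of the LFD rats. Each array carried Cy5-labelled RNA (200 ng) of 1 rat beside a Cy3-labelled pool made of equal amounts of the samples, without dye swap, so every value below is a log2 Cy5/Cy3 ratio, a level relative to the pool that also holds any dye bias of the probe. Each rat was on 1 array, so the slide and the 4 rats on it cannot be told apart, and nothing states how rats were assigned to slides. In RNA of mixed blood cells, more cells of a type and more RNA per cell cannot be told apart either.

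PBMC RNA holds the transcripts of T cells, B cells, natural killer (NK) cells and monocytes, and of whatever red cell precursors, reticulocytes, platelets and granulocytes pass the gradient. Reticulocytes, the last stage of red cell formation that still holds RNA, carry messages for globins, haem enzymes and membrane skeleton proteins. Type I interferon induces a shared set of antiviral genes in nearly all blood cells. Of the defining markers on the array under a name, 24 of 24 for T cells, 12 of 12 for B cells, 21 of 22 for NK and cytotoxic cells, 18 of 21 for monocytes, 32 of 33 for erythroid cells, 15 of 17 for platelets and 11 of 19 for neutrophils were well above background on at least 6 of the 12 arrays.

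The arrays of slide 1 differed from the others in their Cy5 brightness more than in their Cy3 brightness. The upper quartile of the Cy5 signal was 371 to 423 units on slide 1 and 251 to 373 on the other slides (means 398 ± 24.6 SD, n = 4, and 311 ± 47.7 SD, n = 8), with an exact p of 0.00889 by permutation within diet over 225 splits (two-sided, smallest possible p 0.00444) and 0.0711 after adjustment over 12 array measures. The upper quartile of the Cy3 signal, from the pool, was 202 to 222 units and 164 to 228 units (exact permutation p 0.516, adjusted 0.619). A pair of LFD arrays stood apart by the spread of their log2 ratios, LFD replicate 2 on slide 1 with a median absolute deviation of 0.57 and LFD replicate 6 on slide 5 with 0.61, against 0.26 to 0.39 on the other 10. Over all probes their ratios correlated at -0.25, the lowest value of any pair of the 12 arrays. Along the first principal component of the tested probes, which took 36.3% of the variance, the 4 arrays of slide 1 lay between 18.3 and 86.5 and the other arrays between -95.4 and 9.23, with LFD replicates 2 and 6 at the ends.

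Of 24256 probes tested, 1159 (4.78%) were called higher and 940 (3.88%) lower on slide 1 at an adjusted p under 0.05 (limma with diet as a covariate, Benjamini-Hochberg over all probes), 8.65% in all. An unadjusted p under 0.05 was reached by 7770 probes, 32% of those tested. The called probes sat close to the threshold: the lowest adjusted p was 0.0397 and 837 probes shared values under 0.04. All 2099 called probes had the same sign of difference in LFD and in HFD. Their calling on both diets together made this likely, so it is no separate evidence. The arrays of slide 1 lay wholly above the others at 888 probes (3.66%) and wholly below them at 1141 (4.7%). The median standard error of a slide difference was 0.19. The share called higher was 55.2% of the called probes here and 27.1% in the authors' deposited table of log2 values, in which the median difference of all probes was -0.13 against -0.03 in the scanner ratios.

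The count depended on single arrays. Without LFD replicate 1, 2, 3, 4 or 5, or without HFD replicate 2, 4 or 5, no probe was called by limma, while 4528 to 7457 probes still had an unadjusted p under 0.05. Without HFD replicate 6 there were 771 calls, without LFD replicate 6 there were 2217, without HFD replicate 3 there were 2851 and without HFD replicate 1 there were 3570. The called probes kept their sign in these 12 fits, which their selection on the same arrays made likely. Leaving out LFD replicates 2 and 6 together gave 0 calls and 5241 probes at an unadjusted p under 0.05.

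**Figure D1:**
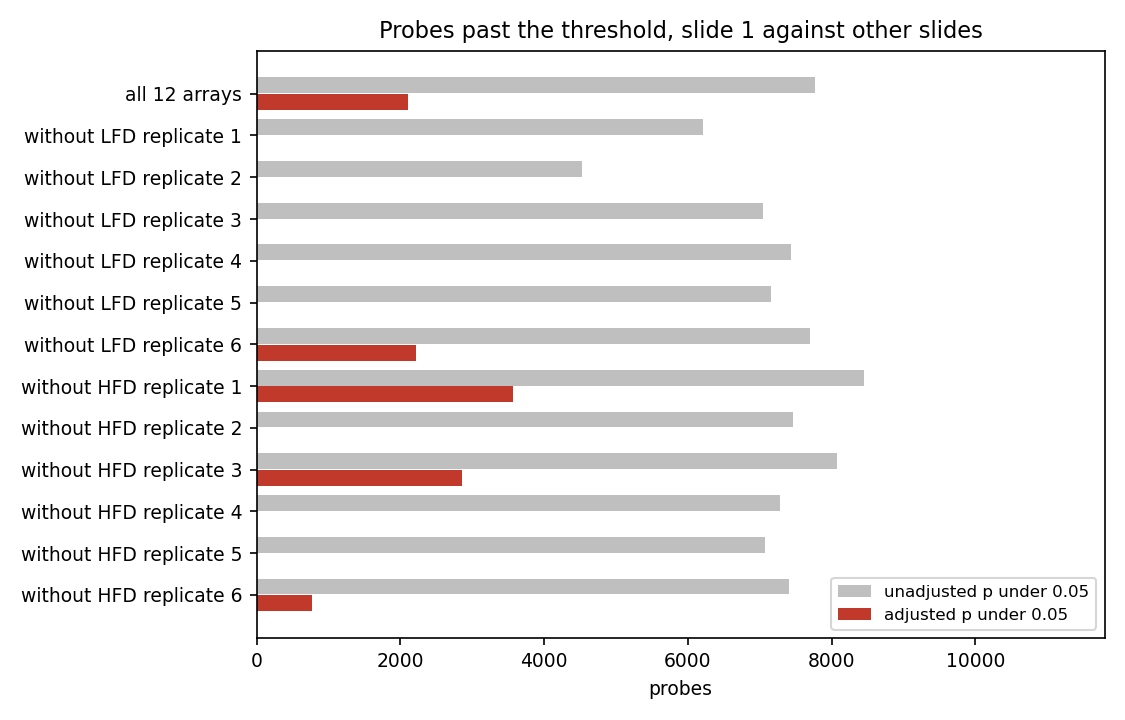
Probes past the threshold (x axis, count) for slide 1 against the other slides with all 12 arrays and with each array left out in turn (y axis); grey bars count an unadjusted p under 0.05, red bars an adjusted p under 0.05 by limma. The red bar is absent in 8 of the 12 left-out fits, and the grey bar stays between 4528 and 8452.

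The 10 named genes with the smallest p among those called higher were Ccdc126, Gzf1, Cyp51, Vim, Spop, Map4k3, Hsp90b1, Slu7, Actr2 and Snx25. Vim encodes vimentin, the intermediate filament protein of leukocytes, and its probe lies on chromosome 17 at 87851390 to 87851449 (rn4). Its log2 ratio was 0.82 and 0.94 on LFD replicates 1 and 2 and 0.57 and 0.75 on HFD replicates 1 and 2. On the 8 other arrays it ran from -0.81 through a median of -0.37 to 0.14. No array of the other slides reached those of slide 1, and the difference was 1.08 ± 0.16 (SE), 2.12-fold, with an adjusted p of 0.0397 by limma. Hsp90b1, the endoplasmic reticulum form of the HSP90 chaperone, stood at 0.57, 0.99, 0.41 and 0.74 on slide 1 and at -0.73, -0.42 and 0.12 (lowest, median and highest) elsewhere. The groups did not overlap, and Hsp90b1 was 2.03-fold higher on slide 1.

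Cyp51, the sterol 14-demethylase of cholesterol synthesis, stood at 0.57, 0.56, 0.75 and 0.73 on slide 1 and at -0.56 to 0.35 on the other slides (median -0.29). Its difference of 0.86 ± 0.13 (SE) was similar within LFD (0.95) and HFD (0.76). Spop, an adaptor of a cullin 3 ubiquitin ligase, differed by 1.18 ± 0.19 (SE), Map4k3, a kinase upstream of the JNK pathway, by 0.86 ± 0.14, and Slu7, a splicing factor, by 0.96 ± 0.16. The groups did not overlap for any of these 3 genes. Ccdc126, a coiled-coil protein, had the largest difference of the 10, 2.25 ± 0.28 (SE), from ratios of 1.09 to 2.29 on slide 1 and of -1.33 to 0.11 elsewhere. Its probe was dim, with a mean Cy5 signal of 45.4 units, and was well above background on all 4 arrays of slide 1 and 5 of the 8 others. Gzf1, a zinc finger protein, was also dim (40.0 units). After normexp background correction the differences of these dim probes shrank, to 0.59 for Ccdc126 and 0.15 for Gzf1. Snx25, a sorting nexin, showed the same sign at 2 of its 3 probes.

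The 10 named genes with the smallest p among those called lower were Coa7, Igdcc4, Pusl1, Il18bp, Lyc2, Npb, Usp22, Prr16, Or6ae1 and Clcn6. Coa7, an assembly factor of cytochrome c oxidase, stood at -0.64, -0.72, -0.69 and -0.55 on slide 1 and at -0.22 to 0.29 on the other slides (median 0.14). The groups did not overlap, and its difference was -0.74 ± 0.11 (SE; adjusted p 0.0397 by limma). Usp22, the deubiquitinase of the SAGA complex, had ratios of -0.28, -0.89, -0.33 and -0.95 on slide 1 and of 0.01 to 0.72 elsewhere, a difference of -0.89 ± 0.17 (SE) that was alike within LFD (-0.96) and HFD (-0.83). Il18bp, the secreted decoy that binds interleukin 18, differed by -0.75 ± 0.13 (SE), and Clcn6, an endolysosomal chloride transporter, by -0.75 ± 0.14, although the second probe of Clcn6 had the opposite sign. Lyc2, a lysozyme gene, had ratios of 1.73 to 2.36 on slide 1 and of 2.45 to 3.66 elsewhere. All 12 lay far above 0 although the pool was made of the samples, so they are no level relative to the pool, and only their difference (-1.18 ± 0.21 SE) is read. Prr16 was also above 0 on all 12 arrays (0.78 to 3.34). Igdcc4, Npb and Or6ae1 were dim, with mean Cy5 signals of 27.4, 30.8 and 25.1 units, and normexp correction took their differences to -0.17, -0.22 and -0.094. It took that of Lyc2 to -0.39, that of Prr16 from -1.36 to -0.23 and that of Pusl1 from -0.80 to -0.33. Coa7, Usp22, Il18bp and Clcn6 shrank less, to -0.50, -0.64, -0.46 and -0.51.

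**Figure D2:**
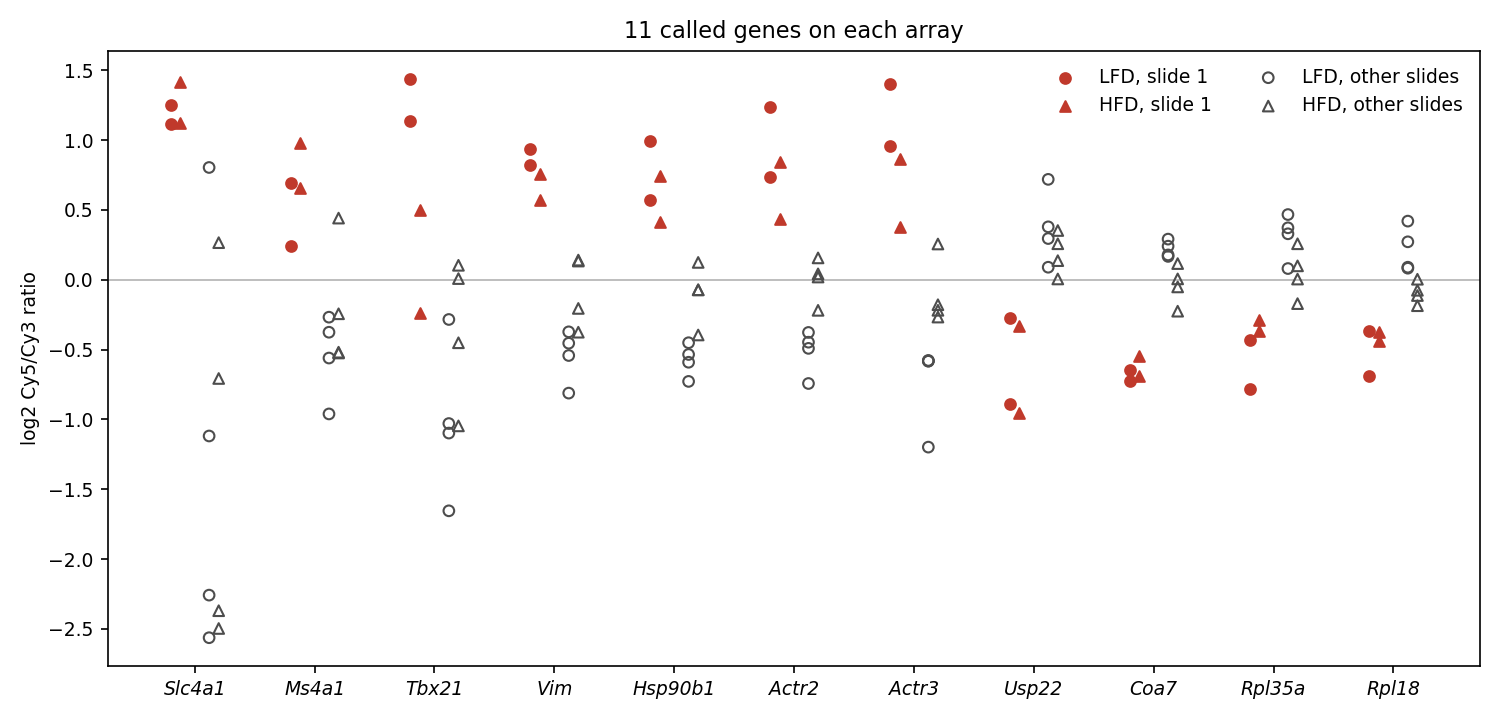
Log2 Cy5/Cy3 ratio (y axis) of 11 called genes (x axis) on each of the 12 arrays; filled red symbols are slide 1, open grey symbols the other slides, circles LFD and triangles HFD. The 4 red symbols of Vim lie between 0.57 and 0.94, above all 8 grey ones, and those of Slc4a1 between 1.12 and 1.42, while the grey ones of Slc4a1 reach from -2.56 to 0.80.

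The erythroid list had the largest median difference of the blood cell lists, with few called members. Of the 32 erythroid genes that passed the filter, 29 had a difference above 0, with a list median of 0.64, against 48.5% above 0 and a median of -0.02 over the 10608 named genes. The list median per array was 0.64 on both LFD arrays of slide 1 and 0.46 and 0.31 on its HFD arrays. On the other slides it ran from -0.94 through a median of -0.24 to 0.40, so 1 of the 8 arrays, LFD replicate 3, lay within the range of slide 1. The median difference was 0.71 within LFD and 0.78 within HFD. Only 2 members were called higher and none lower, 6.25% of the list against 4.43% of named genes called higher and 3.52% called lower.

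Slc4a1, a called member, encodes band 3, the anion exchanger of the red cell membrane, and its probe lies on chromosome 10 at 91455352 to 91455411 (rn4). Its ratio was 1.25 and 1.12 on LFD replicates 1 and 2 and 1.12 and 1.42 on HFD replicates 1 and 2. On the other arrays it ran from -2.56 through a median of -1.69 to 0.80. The 4 arrays of slide 1 were alike and above all others, while the others were widely spread. The difference was 2.53 ± 0.64 (SE), 5.79-fold, adjusted p 0.0424 by limma.

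The remaining erythroid genes had large differences with wide errors. Fech, ferrochelatase, the last enzyme of haem synthesis, differed by 1.57 ± 0.47 (SE; adjusted p 0.0577 by limma) and its groups did not overlap. Bpgm, which makes the 2,3-bisphosphoglycerate of red cells, differed by 1.09 ± 0.37 (adjusted p 0.0761 by limma). Hbb, the beta globin, had ratios of 0.97, 0.51, 0.80 and 0.70 on slide 1 and of -1.87 to 1.15 elsewhere, a difference of 1.23 ± 0.53 (adjusted p 0.138 by limma). Alas2, the erythroid enzyme that starts haem synthesis, differed by 0.87 ± 0.49 (adjusted p 0.242 by limma). The arrays of slide 1 thus lay above all others for Slc4a1 and Fech, and inside the range of the others for Hbb. Without LFD replicates 2 and 6 the list median was 0.60, and over 27 alternative settings it stayed between 0.30 and 0.81.

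GATA1, the transcription factor that drives red cell genes, recognises a GATA core. Of the 32 measured erythroid genes, 20 had a promoter in the RefSeq table (assembly GRCr8), and the letters GATAA were present on either strand of the 250 bases upstream in 9 of these 20 (45.0%), against 23.5% of 33469 promoters. Slc4a1 was not among the 20. The promoter of Alas2 is shown as an example, on chromosome X, plus strand (chrX:22895200-22895449), with GATAA in capitals beginning 135 bases before the gene start. A match is a description of letters and not evidence of binding.

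Alas2: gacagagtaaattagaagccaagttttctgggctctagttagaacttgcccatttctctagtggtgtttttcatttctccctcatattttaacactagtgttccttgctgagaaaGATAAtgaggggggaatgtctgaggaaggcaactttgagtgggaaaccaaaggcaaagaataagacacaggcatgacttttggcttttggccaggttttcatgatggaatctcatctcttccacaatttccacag

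Genes of NK and cytotoxic cells had differences above 0 in 20 of 21 cases, with a list median of 0.51, but the shift lay mostly in LFD (median 0.80) and less in HFD (0.16). The difference between the diets was not tested for the list. Per array the list median was 0.62, 0.46, -0.0040 and 0.37 on slide 1 and -0.65 to 0.24 on the other slides, so the groups overlapped. The 1 called member (4.76% of the list) was Tbx21, the T-box factor of cytotoxic lymphocytes, with 1.14, 1.44, -0.23 and 0.50 on slide 1 against -1.65 to 0.10 elsewhere and a difference of 1.39 ± 0.38 (SE; adjusted p 0.0471 by limma). Klrb1c, an NK receptor, differed by 0.83 ± 0.24 (adjusted p 0.0533 by limma), Ncr1, the NK receptor NKp46, by 1.29 ± 0.42 (0.0694) and the granzyme Gzmk by 0.64 ± 0.21 (0.0663). Prf1, the pore protein perforin, differed by 0.51 ± 0.20 (adjusted p 0.105 by limma) and Nkg7, a granule protein, by 0.15 ± 0.17 (0.583).

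Of 12 B cell markers 7 lay above 0, with a median of 0.22 and 2 called higher (16.7% against 4.43% of named genes). Within HFD all 12 lay above 0 (median 0.45) and within LFD 6 of the 12 (median 0.04). Ms4a1, which encodes CD20, was called: its ratio was 0.25, 0.70, 0.98 and 0.65 on slide 1 and -0.96 to 0.44 on the other slides. Only the lowest array of slide 1 fell inside the range of the others, and the difference of 1.02 ± 0.20 (SE; adjusted p 0.0397 by limma) was the same in LFD (1.01) and HFD (1.03). Bank1, a scaffold protein of B cell receptor signalling, was called as well (0.68 ± 0.17), without overlap. Of 24 T cell markers 12 lay above 0, with a median of 0.01. Within LFD 16 of the 24 lay above 0 (median 0.21) and within HFD 4 of the 24 (median -0.18), and this difference between the diets was not tested for the list. Cd3e, a chain of the T cell receptor complex, differed by 0.12 ± 0.31 (adjusted p 0.815 by limma). The 1 called T cell gene, singled out after its values were seen, was Lef1, a transcription factor of naive T cells, which was lower on slide 1 by -0.70 ± 0.15 (SE) without overlap (-0.67 to -0.25 against -0.23 to 0.52).

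Monocyte markers had 10 of 18 members above 0, a median of 0.22 (-0.074 in the authors' deposited table) and 2 members called higher (11.1% against 4.43% of named genes). Per array the monocyte list median ran from -0.53 to 0.65 on slide 1, a range that enclosed the other slides (-0.45 to 0.45). Without LFD replicates 2 and 6 the median of the differences was 0.027. Cybb, the catalytic chain of the phagocyte NADPH oxidase, differed by 0.85 ± 0.23 (SE) and Cx3cr1, the fractalkine receptor, by 0.71 ± 0.19. Cd14, the lipopolysaccharide co-receptor, differed by -0.11 ± 0.57 (adjusted p 0.913 by limma), and Lyz2, a lysozyme of myeloid cells, by 0.79 ± 0.38 (0.169). Of the neutrophil genes, S100a9 differed by 0.38 ± 0.47 (adjusted p 0.605 by limma). Platelet genes varied more among the 4 arrays of slide 1 than between the slides. The platelet list median was -0.78 and 0.94 on its LFD arrays (replicates 1 and 2) and 0.96 and -1.97 on its HFD arrays, a range that enclosed all 8 other arrays (-1.02 to 0.65). Pf4, platelet factor 4, accordingly stood at -0.39, 2.40, 1.49 and -1.97, with a difference of 0.35 ± 0.68 (adjusted p 0.747 by limma), and no platelet gene was called.

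**Figure D3:**
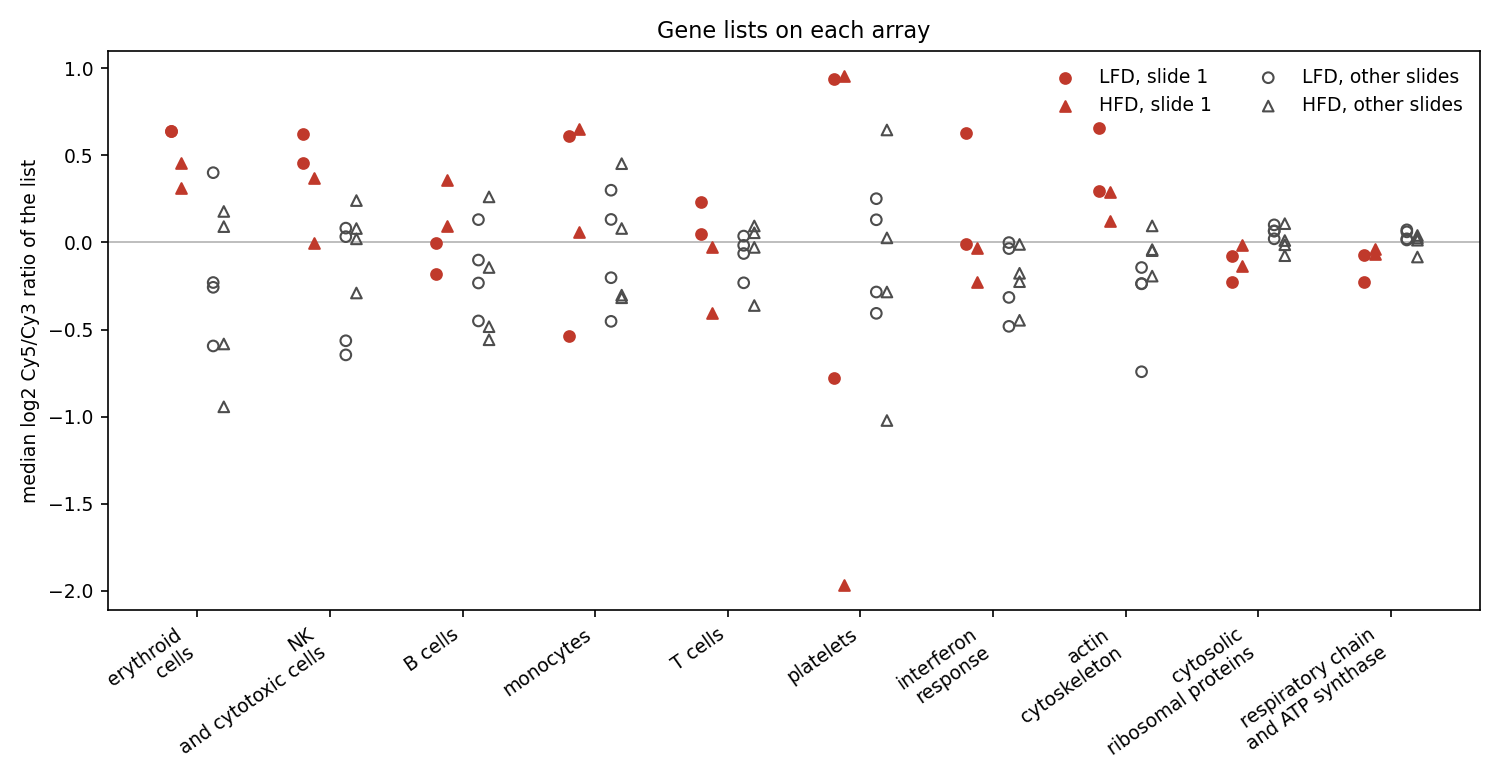
Median log2 Cy5/Cy3 ratio of the measured members (y axis) of 10 gene lists (x axis) on each of the 12 arrays; filled red symbols are slide 1, open grey symbols the other slides, circles LFD and triangles HFD. The red symbols of the actin list lie between 0.12 and 0.66, above all grey ones, those of the erythroid list between 0.31 and 0.64, and those of the platelet list run from -1.97 to 0.96.

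Interferon response genes had differences above 0 in 29 of 34 cases, with a median of 0.27, 0.57 within LFD and 0.06 within HFD. Per array the list median was -0.01, 0.63, -0.03 and -0.23 on slide 1 and -0.48 to -0.00062 on the other slides. LFD replicate 2 alone was above 0, and without LFD replicates 2 and 6 the list median of the differences was 0.07 with 20 of 34 above 0. The called members were Cmpk2, a mitochondrial nucleotide kinase, at 0.58 ± 0.15 (SE; adjusted p 0.0442 by limma) and Herc6, an ISG15 ligase, at 1.06 ± 0.28 (0.0454), 5.88% of the list against 4.43% of named genes called higher. Rsad2, the antiviral protein viperin, had ratios of 1.23, 1.19, 0.83 and 1.29 on slide 1, closely together, and of -1.71 to 1.31 elsewhere, a difference of 1.70 ± 0.50 (adjusted p 0.0547 by limma). Parp9 differed by 0.86 ± 0.25 (adjusted p 0.0532 by limma) without overlap.

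The interferon-stimulated response element is built around 2 copies of GAAA with 2 bases between them. Of the 34 measured interferon genes, 26 had a promoter in the RefSeq table (GRCr8), and 17 of them (65.4%) held this arrangement on either strand within 250 bases upstream, against 3.41% of all 33469 promoters. The 2 called genes Cmpk2 and Herc6 were among the 9 without a match. The promoters of Rsad2 (minus strand, chr6:48788121-48788370) and Gbp5 (plus strand, chr2:233910749-233910998), a guanylate-binding GTPase chosen for its match and at 0.64 ± 0.19 (SE; adjusted p 0.0589 by limma), are shown with the match in capitals, which begins 147 and 56 bases before the gene start.

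Rsad2: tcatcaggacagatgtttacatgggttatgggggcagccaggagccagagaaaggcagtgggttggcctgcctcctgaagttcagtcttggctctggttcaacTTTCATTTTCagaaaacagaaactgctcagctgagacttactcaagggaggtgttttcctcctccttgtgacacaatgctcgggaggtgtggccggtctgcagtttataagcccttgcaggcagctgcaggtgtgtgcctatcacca

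Gbp5: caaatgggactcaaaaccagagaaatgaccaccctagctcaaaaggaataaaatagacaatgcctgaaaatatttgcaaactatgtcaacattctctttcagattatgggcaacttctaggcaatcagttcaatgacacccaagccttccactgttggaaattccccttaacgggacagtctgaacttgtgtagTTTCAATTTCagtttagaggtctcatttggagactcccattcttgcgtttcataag

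The actin cytoskeleton list held the largest share of called genes among the 27 lists. Of its 21 measured members 18 had a difference above 0 and 6 were called higher (28.6% against 4.43% of all named genes). Its list median was 0.30, 0.66, 0.29 and 0.12 on slide 1 and -0.74 to 0.10 on the other slides, without overlap, and the median difference was 0.72 within LFD and 0.24 within HFD. Actr2 and Actr3 are the actin-related subunits of the Arp2/3 complex, which nucleates branched actin. Actr3 stood at 0.96, 1.40, 0.38 and 0.87 on slide 1 and at -1.20 to 0.26 elsewhere, a difference of 1.32 ± 0.24 (SE), 2.50-fold, and Actr2 differed by 1.07 ± 0.18. Vasp, which promotes filament elongation, differed by 0.93 ± 0.18 and Lcp1, the leukocyte plastin that bundles actin, by 0.97 ± 0.20, and neither overlapped. Actb was not called, at 0.35 ± 0.20 (adjusted p 0.246 by limma), and was at -0.32 in the authors' deposited table.

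Genes of the endoplasmic reticulum and of class I antigen presentation included further calls. Besides Hsp90b1, the disulfide isomerase Pdia6 (0.69 ± 0.15 SE) and the chaperone calreticulin, Calr (0.68 ± 0.18), were called higher, and Herpud1, a component of endoplasmic reticulum degradation, lower (-0.98 ± 0.27). The called members were 26.7% of the list of 15, against 7.95% of named genes called in either direction, and 7 of the 15 lay above 0. The median of the differences was -0.03, whereas the list median per array was 0.11 to 0.16 on slide 1 and -0.21 to 0.09 on the other slides, without overlap. Of 10 genes of class I presentation 8 lay above 0, with a median of 0.17 and Calr as the called member, while the median was -0.14 in the authors' deposited table.

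Of 73 measured genes of cytosolic ribosomal proteins 59 lay below 0, with a list median of -0.12 (-0.79 in the authors' deposited table, with 1 of 73 above 0), and 5 were called lower and none higher (6.85% against 3.52% of named genes called lower). Rpl35a stood at -0.43, -0.78, -0.29 and -0.36 on slide 1 and at -0.17 to 0.47 elsewhere, a difference of -0.65 ± 0.14 (SE; adjusted p 0.0397 by limma) without overlap. Rpl18 (-0.53 ± 0.12), Rpl37 (-0.67 ± 0.16), Rpl36 (-0.38 ± 0.10) and Rpl37a (-0.50 ± 0.14) were the other called members. Rpl4, singled out for its opposite sign, was at 0.94 ± 0.27 (adjusted p 0.0525 by limma). The list medians of the arrays were -0.23 to -0.02 on slide 1 and -0.08 to 0.11 on the other slides, with little overlap. Genes of the respiratory chain and ATP synthase lay below 0 in 40 of 63 cases (median -0.09, and -0.47 in the authors' deposited table), and the only called member was Ndufs1 of complex I, which was higher (1.35 ± 0.38) and was singled out after its values were seen.

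The remaining lists had medians between -0.57 and 0.10 with at most 4 called members each. Circadian clock genes lay below 0 in 10 of 14 cases (median -0.22, 0 called) and NF-kB and inflammatory genes in 14 of 26 (median -0.17, 1 called). The proteasome list of 31 had a median of -0.01. Fos, an immediate early gene, differed by 0.29 ± 0.26 (SE; adjusted p 0.453 by limma).

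The slide difference was larger in LFD than in HFD by its median size over all probes. The 2 arrays with the widest spread of ratios, LFD replicate 2 on slide 1 and LFD replicate 6 on slide 5, lay on opposite sides of the LFD comparison. Their part in the larger LFD difference was not tested. Within LFD (2 arrays against 4) 4061 probes were called (16.7%) and 8666 (35.7%) had an unadjusted p under 0.05, and within HFD none was called by limma, with 1087 (4.48%) at an unadjusted p under 0.05. The median size of the difference over all probes was 0.43 within LFD and 0.20 within HFD. Over the 24256 probes the 2 differences correlated at 0.52, given as a description, since probes are not replicates and each pair of groups shares its slide. The test of the difference between the diets called no probe by limma (lowest adjusted p 0.280; 1778 probes, 7.33%, at an unadjusted p under 0.05). Among the named genes with the smallest p there, Camp, an antimicrobial peptide of neutrophils, had slide differences of -1.22 in LFD and 0.80 in HFD, Tjp3, a tight junction protein, of -0.72 and 0.47, and Snx10, a sorting nexin, of 1.33 and -0.28. Col16a1, a collagen, Or8c20, an olfactory receptor, and Pip4k2b, a lipid kinase, were the other 3. None of the 6 was called (adjusted p 0.632 by limma for each).

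**Figure D4:**
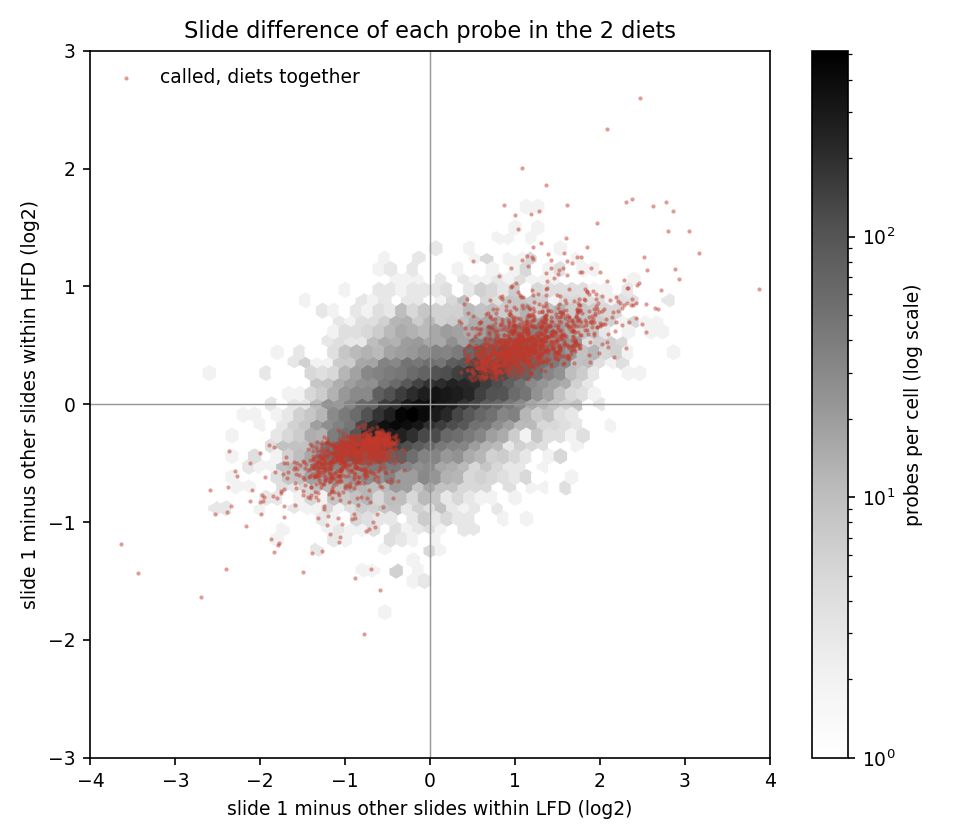
Difference between slide 1 and the other slides of each tested probe within LFD (x axis, log2) and within HFD (y axis, log2); grey cells count probes on a log scale and red points are the 2099 probes called with both diets together. All red points lie in the lower left and upper right quadrants, which calling on both diets together made likely. The cloud is wider along the LFD axis, where the median size is 0.43 against 0.20.

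Over the called probes the median difference was larger in the Cy5 channel than in the Cy3 channel, with opposite signs, although 13% of them had a larger Cy3 than Cy5 difference. Among probes called higher, the median difference was 0.82 in the ratio, 0.60 in Cy5 and -0.21 in Cy3 (each channel relative to its array's 75th percentile). Among probes called lower it was -0.65, -0.46 and 0.20. The ratio contains both channels, so these parts are a description. Tested alone, neither channel gave a call by limma: the lowest adjusted p was 0.136 for Cy5, with 4264 probes (17.6%) at an unadjusted p under 0.05, and 0.0940 for Cy3, with 4427 (18.3%). The Cy3 channel holds the same pool on every array. Its genes with the smallest p were Pard3 (0.84 ± 0.12 SE), Nxf7 (0.87 ± 0.15) and Il4 (1.19 ± 0.22), higher on slide 1, and Nuak2 (-0.80 ± 0.13), Bex4 (-1.05 ± 0.18) and Tmx2 (-0.61 ± 0.11), lower, with adjusted p from 0.170 to 0.179 by limma. For Slc4a1 the Cy5 difference was 1.95 and the Cy3 difference -0.57, for Vim 0.83 and -0.24, and for Rpl35a -0.52 and 0.14.

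Slide differences varied with where a probe lay along its gene, short of the threshold after adjustment, and with gene span, which was not tested. For 1869 genes with several tested probes at least 200 bases apart, the ratio of the probe nearest the 3′ end was compared with that of the probe nearest the 5′ end on each array. On slide 1 the median of 3′ minus 5′ was -0.14 and -0.22 for the LFD arrays (replicates 1 and 2) and -0.042 and -0.046 for the HFD arrays. On the other arrays it ran from -0.063 on HFD replicate 3 to 0.29 on LFD replicate 6. All 4 arrays of slide 1 were below 0 and 7 of the 8 others above it, a difference of -0.18 with an exact permutation p of 0.0178 (two-sided, within diet) and 0.0711 after adjustment over the 12 array measures. This measure was chosen after other values had been seen. The median slide difference was 0.19 at the 5′ probes and -0.0067 at the 3′ probes of the same genes, with 186 of the 5′ probes called higher and 47 lower against 100 and 56 of the 3′ probes.

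The slide differences also varied with gene span on GRCr8, introns included. The 470 named genes called higher had a median span of 36.7 kb and the 373 called lower of 10.95 kb, against 20.9 kb over the 10608 named genes. With the genes ranked by span into 4 equal bins, 1.73% were called higher and 6.15% lower in the bin of shortest genes, and 7.01% and 2.04% in that of longest genes. The median spans were 3.13 kb for the ribosomal protein genes, 7.68 kb for the respiratory chain and 22.5 kb for the erythroid list. Other lists ran the other way, with 13.9 kb for the actin list (median difference 0.37) and 13.4 kb for interferon genes (0.27). So did NK and cytotoxic genes at 8.77 kb (0.51), class I presentation at 7.63 kb (0.17), circadian clock genes at 25.5 kb (-0.22) and hypoxia genes at 33.0 kb (-0.07). The part of gene span in the slide differences was not tested. With the array's 3′ minus 5′ value as a further covariate, 0 probes were called by limma and 2409 had an unadjusted p under 0.05. That value was computed from the same tested ratios and itself differed between the slides. This fit therefore cannot separate it from the slide, and the changes under it are a description. The difference of Slc4a1 then went from 2.53 to 1.90, that of Ms4a1 from 1.02 to 0.99 and that of Cyp51 from 0.86 to 0.85, while Actr3 went from 1.32 to 0.69, Lcp1 from 0.97 to 0.46 and Calr from 0.68 to 0.24. The list medians were 0.30 for erythroid genes (24 of 32 above 0), 0.37 for NK and cytotoxic genes, 0.21 for the actin list, 0.03 for interferon genes and -0.10 for ribosomal protein genes. Under this covariate the median went from 0.22 to 0.39 for B cells, from 0.01 to -0.18 for T cells, from -0.03 to 0.50 for neutrophils and from -0.12 to 0.43 for plasma cells, so lists moved in both directions.

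**Figure D5:**
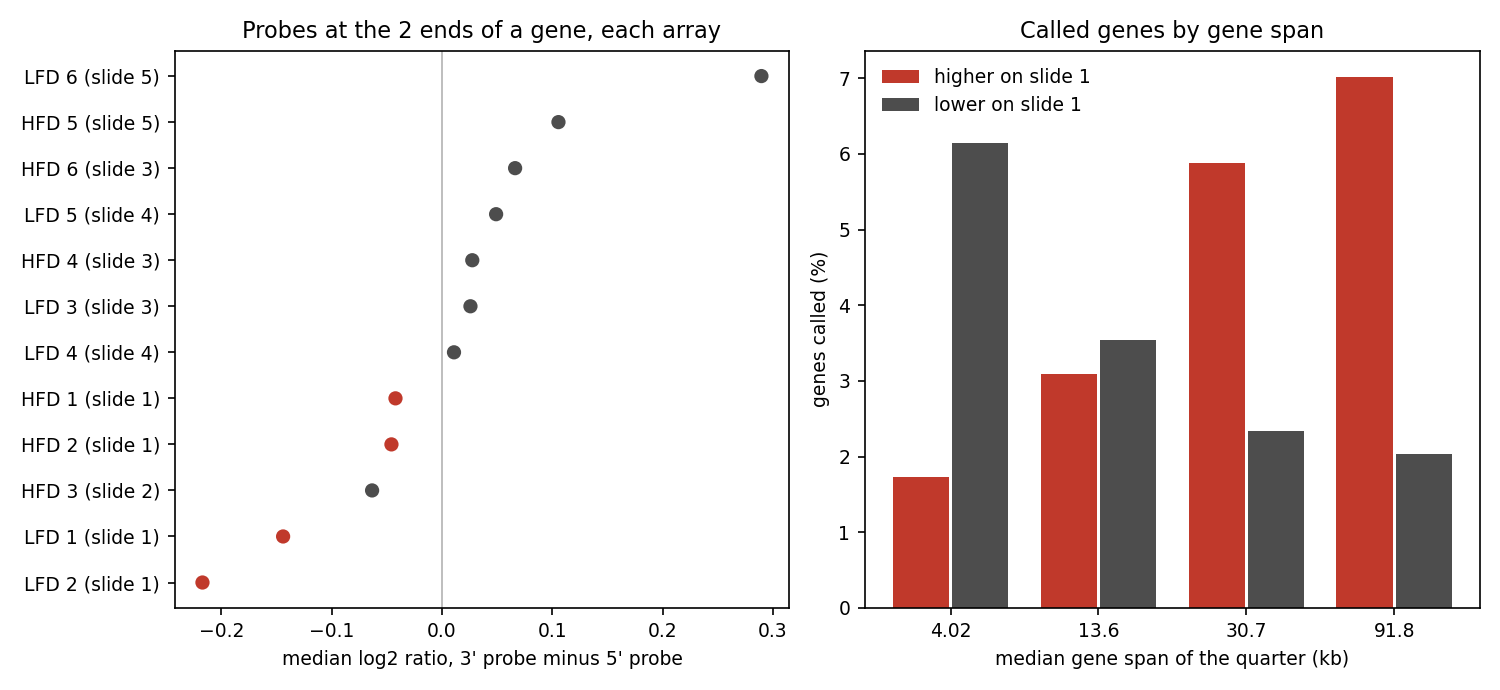
Left, the median log2 ratio of the 3′ probe minus the 5′ probe over 1869 genes (x axis) on each array (y axis), red for slide 1 and grey for the other slides. Right, the share of named genes called higher (red) or lower (grey) on slide 1 (y axis, percent) in 4 equal bins of gene span, labelled with the median span in kb (x axis). The 4 red points lie between -0.22 and -0.042, and the share called higher goes from 1.73% to 7.01% as spans lengthen.

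Calls were found at every brightness, with 4.83%, 9.38%, 11.9% and 8.46% of probes called in 4 equal bins from the dimmest to the brightest. Of 2482 genes with several tested probes, 213 had their brightest probe called. Of the 250 other probes of these genes, 79.6% had the same sign and 26.4% were called in the same direction.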

How the data were processed

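RNA of PBMC from 1 rat per array (Cy5) was hybridised with a pool (Cy3) to rat 4x44K arrays, and the authors deposited 18 scanner outputs. The submitters' processing notes name Agilent Feature Extraction 10.5.1.1 as the software. Mean, background and processed signals are each an intensity, the last already background-subtracted and dye-normalized, per the file headers. A table of log2 values deposited by the authors covers 21530 spots, with processing not given in the sources used here. Its columns had a median of 8.40, and its values, centred per spot, correlated at 0.885 with the log2 ratios (slope 0.700), so its direction was matched while its centring stays unknown. It served as an alternative.

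Slides were read from the barcodes and numbered in barcode order, and all were scanned in 1 session. Log2 processed Cy5/Cy3 ratios were taken for 43379 non-control spots, spots marked as outliers were left out, and spots of a probe were averaged (41012 probes, of which 20572 had 1 gene name from RefSeq assembly GRCr8, 187 several and 20253 none). The filter required a Cy5 signal well above background on 6 or more of the 12 arrays. Slide 1 minus the other slides was fitted with diet by limma 3.58.1 (R 4.3.3), with Benjamini-Hochberg adjustment and a threshold of 0.05. The 2 diets and their difference were contrasts of a single limma fit to the 12 arrays, with a residual spread per probe shared by the diets. Each channel (relative to its 75th percentile) was fitted as the ratio was. A gene was represented by its brightest probe. Coordinates of probes refer to rn4, as in the array design in the headers, and gene strand and span come from RefSeq. The fits were tested on simulated data. Spike-in spots lay at background and were not used.

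The members, lists and rules were chosen with earlier results of these data known. Named are the 10 smallest p per direction among called genes of 1 sign in both diets, 3 per direction of the channel and diet tests, a fixed set of marker genes, of which Itga2b was not measured, and up to 4 members per list described in the direction of its median, while Lef1, Gbp5, Actb, Pdia6, Rpl37a, Rpl4 and Ndufs1 were named after their values were seen. Lists carry no test. Each array stands for a different animal per the labels, so p-values measure the spread between rats, whose small number limits precision. With a single slide on 1 side of the contrast, they do not measure the spread between slides. The labels of 1 HPD array conflict, and it entered as HPD in the alternative with 18 arrays. Replicate numbers did not pair the arrays: the residuals of LFD and HFD arrays of the same number correlated between -0.27 and 0.11. Alternatives were another background correction, scaling, filters, the deposited table, blocks, weights and left-out arrays. The covariate of probe position, the further loess and the fit without LFD replicates 2 and 6 were added after seeing the data. Some genes named by the rule are not reported here.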

Additional observations from a re-analysis of the deposited data

Results flagged for a closer look

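In 18 of 200 groups of 4 or 8 arrays checked over the named genes, lists and array measures, 1 array stood away from the rest of its group by Dixon's test at the 95% level, which chance flags in about 1 group in 20. LFD replicate 6 accounted for 11 of them among the arrays of the other slides. Its ratio was -1.44 for Cd3e (the other 7 arrays lay between -0.45 and 0.25), -1.27 for Cd8a, -1.33 for Cd2, -1.73 for Cd247 and -1.87 for Ccr7, all genes of T cells, and -2.33 for the NK receptor Ncr1. The median of the whole T cell list was -0.23 on this array, inside the range of the other slides (-0.36 to 0.09). The ratio of LFD replicate 6 was -2.42 for Ndufs1 of complex I, -0.85 for Calr and -1.74 for Pdia3, chaperones of class I assembly, and the median of the actin list was -0.74 on this array against -0.24 to 0.10 on the others. The spread of its log2 ratios was 0.61, against 0.26 to 0.33.

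HFD replicate 3 stood below the other arrays of slides 2 to 5 for the mitochondrial genes Atp5mf (-0.16 against 0.15 to 0.41) and Ndufs5 (-0.20 against 0.07 to 0.24) and for the median of the respiratory chain list (-0.084 against 0.01 to 0.07). HFD replicate 4 was low for the platelet glycoprotein Gp5 (-1.41 against -0.27 to 0.58). On slide 1, LFD replicate 2 was low for Il18bp (-0.82 against -0.46 to -0.39), HFD replicate 1 high for Bank1 (0.67 against 0.28 to 0.34) and HFD replicate 2 high for the B cell gene Cd72 (0.84 against 0.25 to 0.35).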

How the results depend on the processing

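Probes called higher and lower were 2058 and 1464 with normexp and loess, 0 and 0 with Cy5 alone, 9 and 0 without a filter, 1552 and 1504 with both channels well above background on all 12 arrays, 1344 and 3616 in the deposited table, 2497 and 2459 with slide as a random block, 3087 and 2492 with array weights, 1874 and 1798 with the HPD arrays added, and 0 and 0 without LFD replicates 2 and 6 or with the 3′ minus 5′ covariate. The share called higher was 55.2% in the main fit and 27.1% in the deposited table, whose median over all probes was -0.13 against -0.03. The replicate block (consensus correlation -0.092) gave 1789 and 1674, and the replicate numbers mark no shared animal. Slide as a block had a correlation of -0.074. Slide 1 is 1 whole side of the contrast, so this block cannot measure the spread between slides, and its higher count is no added evidence. The other settings (1993 to 2678 calls in all) stayed within 1.5 times. Leaving out 1 array gave 0 to 2117 probes called higher and 0 to 1453 lower. For the Cy3 channel, leaving out 1 array gave 0 to 1 probes called higher (1 without LFD replicate 5) and 0 lower, and the diet by slide test gave 0 under all 15 alternatives (lowest adjusted p 0.207 by limma). The cause of these shifts was not tested.

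None of the called genes named reversed under the alternatives that measured it (27, or 25 to 26 for 7 genes). Values of uncalled genes that did were, for Cd14, 0.049 with scaling, 0.043 with Cy5 alone, 0.20 without LFD replicates 2 and 6 and 0.87 with the covariate, and, for Pf4, -0.030 with Cy5 alone, -0.33 in the deposited table, -0.33 with array weights, -0.41 without LFD replicates 2 and 6 and -0.28 with the covariate. In the deposited table Prf1 was -0.0056, Psmb10 -0.38, Fos -0.056, Nkg7 -0.27, Actb -0.32 and Cd3e -0.16. With the covariate Cd8a was -0.046, Cd2 -0.13, Tap1 -0.052, Cd247 -0.55, Ccr7 -0.42, Thbs1 0.069 and Cd3e -0.66, and without LFD replicates 2 and 6 Cd3e was -0.15. With each array left out, Cd3e ranged from -0.093 to 0.26, Cd14 from -0.53 to 0.14, Pf4 from -0.38 to 1.21, Thbs1 from -1.01 to 0.18, Gng11 from -1.05 to 0.42 and Vwf from -0.64 to 0.22. The medians of the erythroid, NK, B cell, interferon and actin lists stayed above 0 and those of the ribosomal and respiratory lists below 0 under all 27 alternatives. Their size did not hold in the deposited table. There the first 5 lists, in this order, had medians of 0.35, 0.073, 0.086, 0.037 and 0.11. In the main fit these were 0.64, 0.51, 0.22, 0.27 and 0.37.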

Other observations

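Lists that the report gives only in passing held a few values of their own. Among genes of the cell cycle 2 were called higher and 2 lower of 23, and among those of fatty acid oxidation 2 lower of 16. Of the neutrophil list, 1 of 11 measured genes was called higher. The 6 measured genes of basophils, mast cells and eosinophils had a median of -0.57, the lowest of the 27 lists. The HPD arrays, none of them on slide 1, had erythroid list medians between -0.74 and 0.02 and actin list medians between -0.30 and 0.16.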
